A study of Rattus norvegicus with 6 samples.

Results

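Immediate early genes are the first genes a cell transcribes after a stimulus, from factors that are already present and with no need for new protein. The 10 genes described here are 5 subunits of the AP-1 transcription factor (Fos, Fosl1, Jun, Junb and Jund), the zinc finger factor Egr1, the orphan nuclear receptors Nr4a1 and Nr4a3, and the feedback genes Dusp1 and Zfp36. They were taken by name, and every probe set that the annotation of the RG_U34A array gives to 1 of them was used. That gave 25 probe sets for 10 genes, of 8799 probe sets in all and 4737 named genes. After the filter on low signal 21 probe sets of 8 genes were tested, and the single probe sets of Fosl1 and Jund and 2 of the 3 of Nr4a3 were too dim.

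Growth factors, stretch, hormones and cytokines reach these genes through the mitogen-activated protein kinases, which activate serum response factor with its Ets partners and the cAMP-responsive factor CREB. Angiotensin II, acting on its type 1 receptor, is a classic inducer of Fos and Egr1 in vascular smooth muscle. The transcripts decay within a short time, and cooling, cutting and digesting tissue are also known to induce them. Dusp1 and Zfp36 belong to the same wave and end it: the phosphatase Dusp1 inactivates the kinases, and the zinc finger protein Zfp36 (tristetraprolin) binds AU-rich elements and speeds the decay of unstable messenger RNAs.

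The RNA came from brain capillaries of SHRSP, stroke-prone spontaneously hypertensive rats, 6 weeks old. There were 2 arrays each for rats labelled control, for rats given the converting enzyme inhibitor lisinopril (ACEI, 6 mg/kg per day) and for rats given the angiotensin receptor blocker olmesartan (ARB, 4 mg/kg per day by mouth). The labels also name 1% NaCl without saying which groups received it. All groups share the strain and the tissue, and no normotensive strain was measured. The sources used here do not say how many rats or which preparation stand behind an array, so the p-values measure the spread between these arrays only, and in bulk RNA fewer cells of a type and less RNA per cell cannot be told apart.

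The arrays were not alike in ways that bear on every value below. The first array of the control and of the ACEI pair shared a run day, and the remaining 4 were run on a later one. Chip lots were split in the same way, so an effect of lot cannot be told apart from one of day. The first array of each group was run with 1 fluidics protocol and the second with another. Gapdh signal at the 3' end over that at the 5' end came to 7.31 on control 2, against 0.933 to 1.59 elsewhere, and for beta-actin to 3.15 against 1.04 to 2.05. A high ratio is known from degraded or incompletely copied RNA. Of 10 measured endothelial markers all 10 lay above the array's median on control 1 and ACEI 2, 9 on ACEI 1, 8 and 6 on the ARB arrays and 5 on control 2. The glucose transporter gene Slc2a1 was at 27457 to 66763 on the 6 arrays, while the endothelial adhesion gene Pecam1 was at 194 on control 2, at 553 and 317 on the ARB arrays and at 2728 to 5564 on the other 3. Values are deposited intensities on a linear scale, and differences are on the log2(intensity + 90) scale, which makes changes of dim probe sets look smaller than they are. Levels of different probe sets are not compared with each other.

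In the comparison of both drugs together with the controls (RAS blockade versus control, n = 4 and 2 arrays) no immediate early gene passed the threshold. In limma 0 of the 21 tested probe sets had an adjusted p under 0.05, as had 0.0% of all 5244, and 1 was lower at an unadjusted p under 0.05, a probe set of Nr4a1 (2.02% of all were), and 0 higher (3.43%). Of the 21 probe sets 13 were higher and 8 lower (61.9% and 38.1%), against 60.2% and 39.8% of all tested, and their median difference was 0.12 against 0.14. The same count gave 13 higher and 8 lower for ACEI, against 46.7% and 53.3% of all, and 8 higher and 13 lower for ARB, against 58.6% and 41.4%. After quantile normalization the ARB count was 10 higher and 11 lower, with 2520 and 2724 of all 5244. After cyclic loess normalization it was 12 higher and 9 lower, with 2685 and 2559 of all. Neither drug alone gave a call among the members (0 of 21 for ACEI and for ARB, and 0.0% of all tested in both). At an unadjusted p under 0.05 ACEI had 0 lower and 0 higher (1.37% and 1.2% of all), and ARB had 1 lower, again Nr4a1, and 0 higher (4.65% and 13.7%). On 4 of the 21 probe sets all treated arrays lay below both controls, where 3.68% of all tested did, and on none of the 21 did they all lie above, where 4.63% did. These 4 were a probe set of Nr4a1, a probe set of Zfp36 and 2 of the 4 of Jun, and for ACEI alone and ARB alone 4 were lower without overlap as well (12.1% and 16.6% of all). Without overlap 0 were higher for ACEI (11.4%) and 4 for ARB (34.3%).

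**Figure D1:**
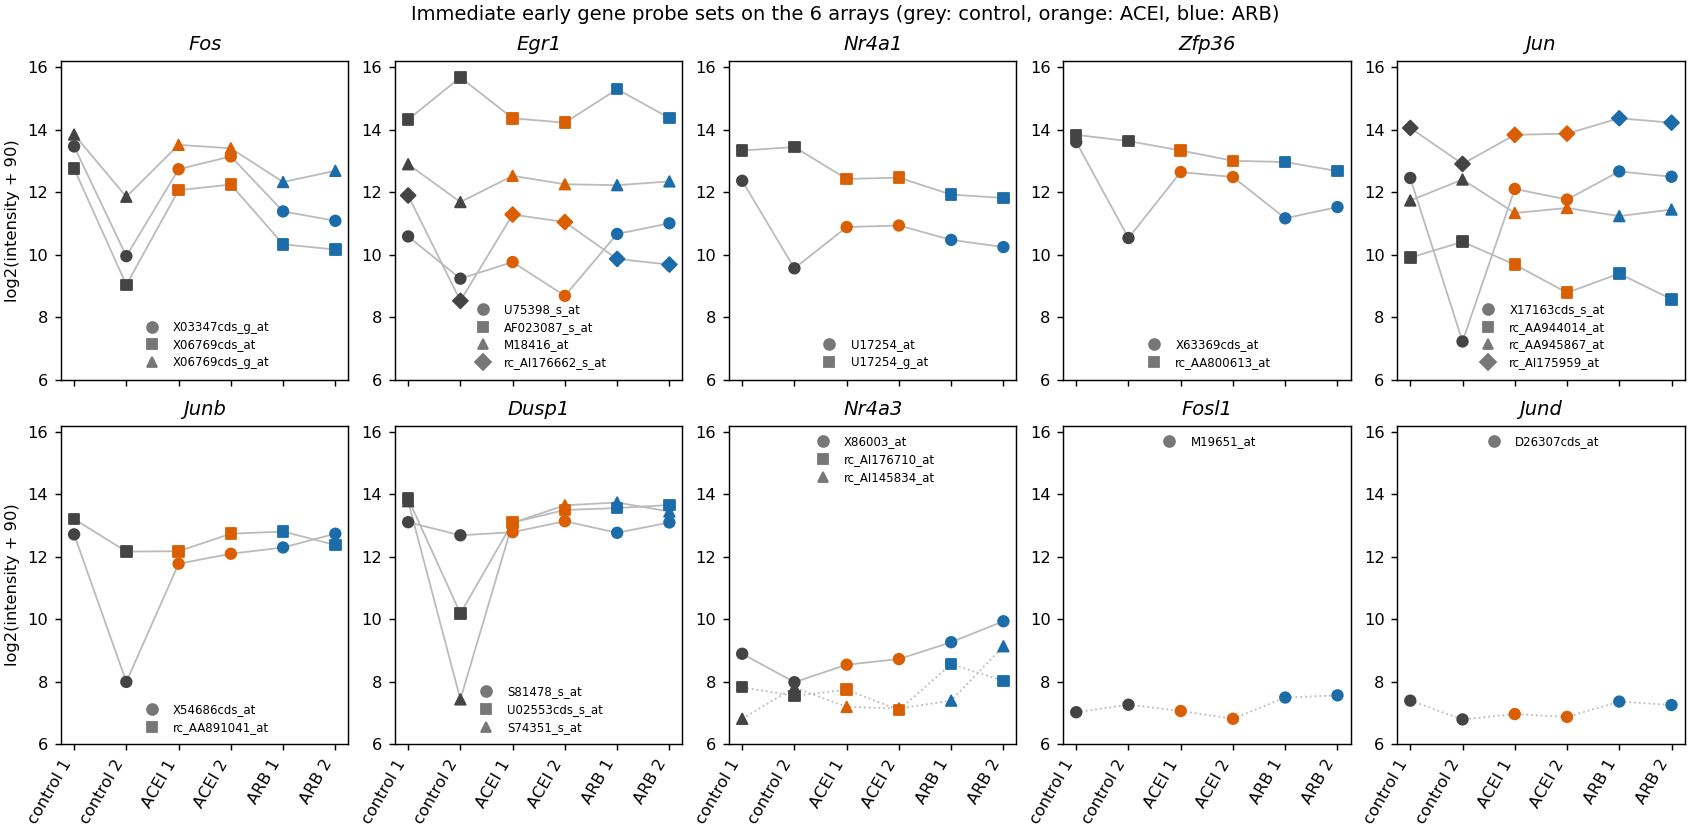
Each panel shows 1 gene, with the log2(intensity + 90) of each of its probe sets on the y axis and the 6 arrays on the x axis (grey control, orange ACEI, blue ARB). Lines only join the values of 1 probe set, and dotted lines mark the 4 probe sets below the filter. Control 2 is the lowest array for the 3 probe sets of Fos and for probe sets of Jun, Junb and Dusp1, while the Nr4a1 probe set U17254_g_at is lower on all 4 treated arrays than on both controls.

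Fos, the inducible partner of the Jun proteins in AP-1, was measured by 3 probe sets that moved alike. X06769cds_g_at read 14646 and 3629 in the controls, 11668 and 10818 with ACEI, and 5056 and 6508 with ARB. Control 1 was the highest array and control 2 the lowest, so the treated arrays lay between the controls. X06769cds_at gave the same order of groups, with 6865 and 436 on the controls, 4198 and 4770 with ACEI and 1206 and 1063 with ARB. X03347cds_g_at was at 11256 and 905, at 6769 and 8972, and at 2588 and 2092. The RAS blockade differences were 0.13 ± 0.57, 0.30 ± 0.87 and 0.38 ± 0.84 (log2 ± SE of the model), all smaller than their error. Without control 2 they were -0.86, -1.56 and -1.38, so 1 array decided the sign. Fosl1 (Fra-1), a Fos relative that AP-1 itself induces, was dim, with M19651_at between 23.1 and 101 on the 6 arrays.

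Jun, the main partner of Fos, was covered by 4 probe sets that did not go the same way. On rc_AA945867_at the controls were at 3336 and 5335, the ACEI arrays at 2497 and 2813 and the ARB arrays at 2336 and 2714. On rc_AA944014_at they were at 869 and 1280, at 738 and 352, and at 585 and 292. On both of these every treated array was below both controls, by -0.69 ± 0.41 and -1.05 ± 0.47 (unadjusted p = 0.125 and 0.0543, adjusted p = 0.835 for both in limma). The other pair differed in the opposite direction. The controls of rc_AI175959_at were at 17048 and 7582, its ACEI arrays at 14537 and 15034 and its ARB arrays at 21078 and 19164, a difference of 0.60 ± 0.45 that was 0.02 without control 2. X17163cds_s_at was at 5532 on control 1 and at 60.3 on control 2, while the 4 treated ones lay at 3409 to 6442. The difference of 2.42 ± 1.17 became -0.19 without control 2.

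Junb and Jund encode the other Jun proteins of AP-1. The tag-derived Junb probe set rc_AA891041_at was at 9359 and 4528 on the controls, 4556 and 6739 with ACEI and 7086 and 5252 with ARB. The groups overlapped, and the difference was -0.16 ± 0.46. X54686cds_at of the same gene was at 6658 on control 1, at 165 on control 2 and between 3435 and 6746 on the treated arrays. Its difference of 1.87 ± 1.07 became -0.49 without control 2. Jund, which unlike Junb is present in resting cells, had a single dim probe set, between 21.8 and 78.6 on the 6 arrays, and was not tested.

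Egr1, the factor that many growth signals induce beside Fos, had 4 probe sets with no shared direction. AF023087_s_at was at 20482 and 52233 on the controls, 21069 and 19070 with ACEI and 40285 and 21225 with ARB, and here control 2 was the highest array. M18416_at was at 7530 and 3212 on the controls and between 4707 and 5807 on the treated arrays. The RAS blockade differences of these were -0.43 ± 0.51 and 0.05 ± 0.46, with overlapping groups. On rc_AI176662_s_at the controls were at 3732 and 281, the ACEI arrays at 2409 and 2036 and the ARB arrays at 846 and 733, a pattern like that of Fos. On U75398_s_at they were at 1456 and 514, at 783 and 323, and at 1543 and 1968, so that the ARB arrays were the highest. Probe sets ending in _s_at can match more than 1 transcript.

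Nr4a1 (Nur77) and Nr4a3 (NOR-1) are nuclear receptors that act without a known ligand and depend on their rate of synthesis. The Nr4a1 probe set U17254_g_at read 10250 and 11120 in the controls, 5420 and 5591 with ACEI, and 3823 and 3529 with ARB. Both controls were above all treated arrays, and the values within each pair lay close together. The difference was -1.23 ± 0.38 for RAS blockade (2.35-fold lower, unadjusted p = 0.0108, adjusted p = 0.832 in limma), -0.94 ± 0.44 for ACEI (1.92-fold lower) and -1.52 ± 0.44 for ARB (2.86-fold lower, adjusted p = 0.177). Leaving out any single array kept the RAS blockade difference between -1.29 and -1.17. U17254_at, from the same sequence record, was at 5185 on control 1 but at 673 on control 2, against 1809 and 1874 with ACEI and 1341 and 1125 with ARB. It was lower than control 1 and higher than control 2 on every treated array, and its difference was -0.33 ± 0.70. Nr4a3 on X86003_at was at 389 and 164 on the controls, 285 and 336 with ACEI and 529 and 889 with ARB, so both ARB arrays lay above the other 4 (ARB versus control 1.16 ± 0.52, unadjusted p = 0.0535, adjusted p = 0.276 in limma). That difference was 0.70 without control 2 and 1.62 without control 1, and 0.63 and 0.62 after quantile and cyclic loess normalization. Its 2 dim probe sets lay between 23.0 and 475 and were not tested.

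Dusp1 showed the widest gap between the controls. S74351_s_at was at 14022 on control 1 and at 83.1 on control 2, against 8635 and 12788 with ACEI and 13570 and 11083 with ARB. U02553cds_s_at was at 14807 and 1081 on the controls and between 8705 and 12811 on the treated arrays. The differences of 2.87 ± 1.40 and 1.43 ± 0.87 became -0.30 and -0.41 without control 2. S81478_s_at, the third probe set of the gene, was at 8754 and 6531 on the controls, 6994 and 8947 with ACEI and 6905 and 8669 with ARB, a difference of 0.05 ± 0.40. Zfp36 was lower on all treated arrays by rc_AA800613_at, with 14614 and 12670 on the controls, 10290 and 8156 with ACEI and 7958 and 6468 with ARB. That is a difference of -0.74 ± 0.39 (1.67-fold lower, unadjusted p = 0.0923, adjusted p = 0.835 in limma), -0.57 ± 0.45 for ACEI and -0.91 ± 0.45 for ARB, and without single arrays the RAS blockade value lay between -0.84 and -0.64. After quantile and cyclic loess normalization it was -0.51 and -0.46. X63369cds_at of the same gene was at 12392 and 1400 on the controls, 6332 and 5657 with ACEI and 2212 and 2877 with ARB, between the controls again (-0.11 ± 0.75).

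The promoters of Nr4a1 and Zfp36, the genes with a probe set below both controls on every treated array and a promoter in the RefSeq table used, are shown beside that of Dusp1, which had no such probe set. Each line gives the 250 bases before the start of transcription, 5' to 3' on the gene's strand, on build GRCr8. Capitals mark the letters TGACG (the core of the cAMP response element, found on either strand), GCGNGGGCG (an Egr site) and the CArG box of serum response factor. The start listed for Nr4a1 lies inside the span of the annotated gene.
Nr4a1, chr7:134259888-134260137, plus strand: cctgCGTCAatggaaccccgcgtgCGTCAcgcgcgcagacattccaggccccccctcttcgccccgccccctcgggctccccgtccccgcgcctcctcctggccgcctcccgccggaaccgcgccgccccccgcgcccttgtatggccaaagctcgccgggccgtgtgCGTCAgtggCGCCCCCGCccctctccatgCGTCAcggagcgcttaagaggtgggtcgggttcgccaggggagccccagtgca
Zfp36, chr1:92799109-92799358, minus strand: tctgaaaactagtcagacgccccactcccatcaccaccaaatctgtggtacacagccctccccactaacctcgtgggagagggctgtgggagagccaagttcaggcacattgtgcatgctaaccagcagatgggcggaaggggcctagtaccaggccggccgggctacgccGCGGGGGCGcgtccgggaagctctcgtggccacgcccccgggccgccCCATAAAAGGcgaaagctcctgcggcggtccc
Dusp1, chr10:17184603-17184852, plus strand: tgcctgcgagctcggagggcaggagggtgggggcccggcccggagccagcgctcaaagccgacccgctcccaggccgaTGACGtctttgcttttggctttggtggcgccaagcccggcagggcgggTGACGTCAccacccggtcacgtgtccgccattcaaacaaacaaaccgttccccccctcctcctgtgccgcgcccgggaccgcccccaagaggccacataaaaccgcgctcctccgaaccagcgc

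Promoters of 7 of the 10 genes were matched, and the motifs were counted in their 250 upstream bases on both strands. The short core TGACG was in 6 of the 7 (Dusp1, Egr1, Fosl1, Junb, Jund and Nr4a1) and in 18.2% of the 33469 promoters of the table. The full palindrome TGACGTCA, which holds the short core on either strand, was in those of Dusp1 and Jund and in 1.59% of all. The CArG box was in those of Egr1 and Zfp36 and in 1.5% of all, and GCGNGGGCG was in those of Jund, Nr4a1 and Zfp36 and in 4.29% of all. The AP-1 letters TGANTCA were in 0 of the 7 and in 6.34% of all. Nr4a1 has 4 copies of the short core and no CArG box in this window, and Zfp36 has a CArG box and no TGACG, while both had a probe set that was lower on all treated arrays. A match is a string of letters and not a site shown to be bound.

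Because arrays of 2 run days were mixed within groups, the drugs were also compared within each day. On the first day, ACEI 1 was below control 1 on 20 of the 21 tested probe sets, against 43.8% of all 5244, with a median difference of -0.61 against 0.07. The lowest 5 were those of Nr4a1 (-1.47 on U17254_at and -0.91 on U17254_g_at), Junb (-1.02 and -0.94) and Zfp36 on X63369cds_at (-0.96), and the exception was AF023087_s_at of Egr1 at 0.04. On the later day the picture turned over. ACEI 2 was above control 2 on 15 of the 21, against 42.8% of all (median 0.98 against -0.18), and the ARB arrays were above control 2 on 16 of the 21, against 61.3% of all (median 0.81 against 0.33). The largest of these later-day differences were those of Dusp1 S74351_s_at (6.22 for ACEI and 6.16 for ARB), Jun X17163cds_s_at (4.54 and 5.35) and Junb X54686cds_at (4.10 and 4.53).

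Of the 21 probe sets 4 were below the control of their day in all 3 of these comparisons. The Nr4a1 probe set U17254_g_at differed by -0.91 for ACEI on the first day, and by -0.98 for ACEI and -1.57 for ARB on the later day. Zfp36 on rc_AA800613_at differed by -0.50, -0.63 and -0.81, and Jun by -0.41, -0.90 and -1.06 on rc_AA945867_at and by -0.21, -1.63 and -1.43 on rc_AA944014_at. These are the 4 probe sets on which all treated arrays lay below both controls, so their same-day signs follow from that order. Each same-day value rests on 1 control array and 1 or 2 treated arrays and has no test. In a model with a term for run day, U17254_g_at of Nr4a1 was at -1.25 ± 0.36 for RAS blockade (unadjusted p = 0.0127, adjusted p = 0.457 in limma), and 0 of the 21 probe sets passed the threshold (0.0% of all). In that fit 15 of the 21 were higher and 6 lower for RAS blockade, against 61.7% and 38.3% of all, and for ARB 16 were higher and 5 lower, against 61.7% and 38.3%.

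**Figure D2:**
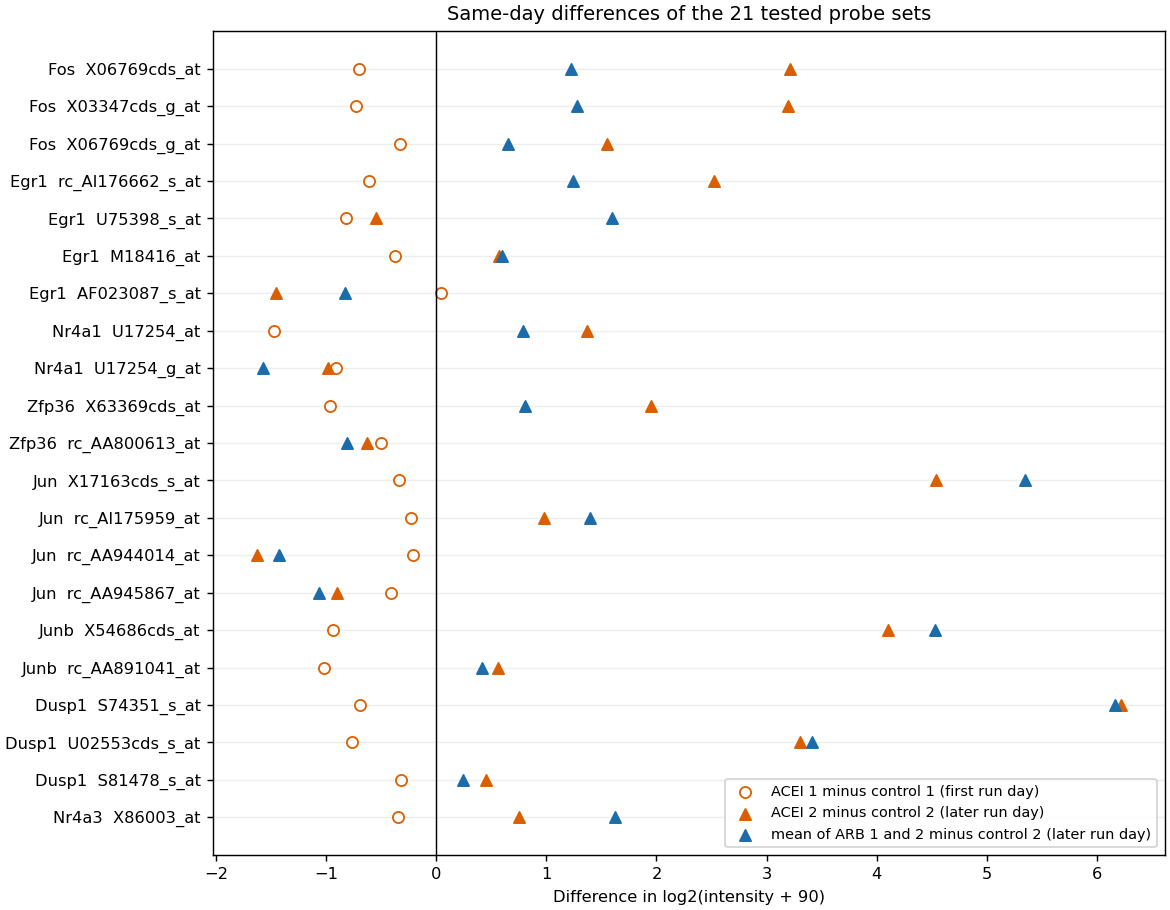
Differences in log2(intensity + 90) between arrays of the same run day for the 21 tested probe sets: ACEI 1 minus control 1 (open orange circles), ACEI 2 minus control 2 (filled orange triangles) and the mean of both ARB arrays minus control 2 (blue triangles). On the first day 20 of 21 values are below 0, while on the later day 15 (ACEI) and 16 (ARB) are above 0.

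The split between the days followed control 2, on which most immediate early probe sets were lower than on control 1. They were lower on 17 of the 21, against 49.8% of all tested, with a median difference of -1.36 against 0.00. On 14 of the 21 the gap was over 2-fold, as it was for 20.7% of all tested. By the kind of sequence a probe set was designed from, the gap differed, with overlap between the kinds. All 7 member probe sets with a coding-sequence identifier (cds) were over 2-fold lower on control 2, from -5.23 for Jun to -1.99 for Fos. Of the 360 tested probe sets of this kind 40.3% were. Expressed sequence tags (rc_) mostly lie near the 3' end of a transcript. Of the 6 member probe sets derived from them 3 were over 2-fold lower, as were 13.2% of all 2189 tested. One of these was rc_AI176662_s_at of Egr1 at -3.37, a wider gap than that of the Fos coding-sequence probe set at -1.99. Of the 8 with other identifiers 4 were over 2-fold lower, as were 24.2% of all 2695 tested. They ran from -6.35 for S74351_s_at of Dusp1, the widest of the 21, to 1.35 for AF023087_s_at of Egr1. The median difference over all tested probe sets was -0.56 for the coding-sequence kind, 0.28 for the tag-derived kind and -0.14 for the others. For Zfp36, Junb and Jun the tag-derived probe sets differed between the controls by -0.20, by -1.03 and by -1.16 to 0.66, and the coding-sequence ones by -3.07, -4.72 and -5.23. The array with these low values is also the one with the high Gapdh ratio of 7.31, and the part of that in the early gene values was not tested.

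**Figure D3:**
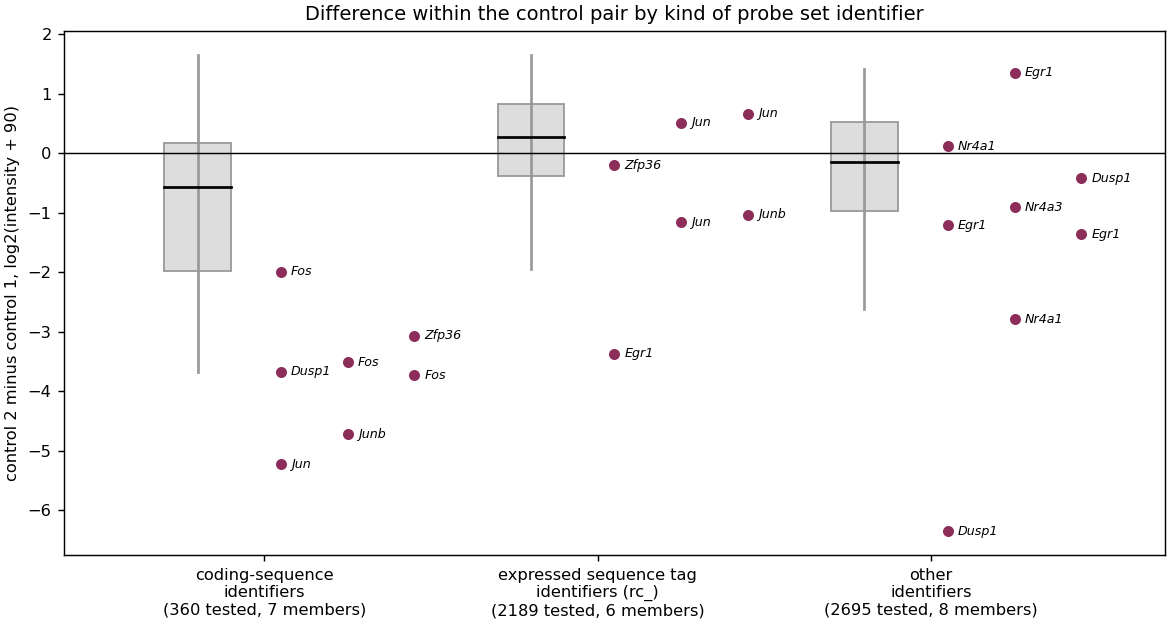
Control 2 minus control 1 in log2(intensity + 90) for 3 kinds of probe set identifier. Grey boxes give the quartiles and median of all tested probe sets of a kind, grey lines their 5th to 95th percentile, and points the member probe sets. The 7 coding-sequence members all lie at or below -1.99, 5 of the 6 tag-derived ones lie between -1.16 and 0.66 and the sixth (Egr1) at -3.37, and the 8 others spread from -6.35 to 1.35.

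Leaving control 2 out made the members more alike and left control 1 as the only control, assumed to vary like the other groups. All 21 probe sets were then lower with ACEI (0 higher, where 53.2% of all tested were lower and 46.8% higher). With ARB 16 were lower and 5 higher (43.1% and 56.9%), and with RAS blockade 18 and 3 (45.7% and 54.3%). In that fit of limma 0 of the 21 passed for RAS blockade or ACEI (0.0381% and 0.0% of all), and 1 passed for ARB (1.96% of all). This was Fos on X06769cds_at, at -2.51 ± 0.45 (adjusted p = 0.0480), with X03347cds_g_at of the same gene at -2.23 (adjusted p = 0.0592). Zfp36 on X63369cds_at was at -2.26 (adjusted p = 0.0570), Egr1 on rc_AI176662_s_at at -2.12 and Nr4a1 at -2.00 and -1.46. In this comparison the ARB arrays and control 1 come from different run days and chip lots, which cannot be told apart from the drug. Leaving out control 1 instead turned the counts, with 16 of 21 higher and 5 lower for RAS blockade (58.5% and 41.5% of all), and 4 passed (1.09% of all), all higher: the Dusp1 probe sets S74351_s_at and U02553cds_s_at, X17163cds_s_at of Jun and X54686cds_at of Junb. For ACEI 15 were higher and 6 lower (46.3% and 53.7%) and 7 passed (5.02% of all), and for ARB 16 were higher and 5 lower (61.3% and 38.7%) and 3 passed (0.267%).

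Olmesartan and lisinopril act at different steps of the angiotensin system, and the arrays of the drugs can be compared without the controls. On all 3 probe sets of Fos both ARB arrays lay below both ACEI arrays, by 3.73-fold, 3.26-fold and 1.94-fold (log2 differences of -1.90 ± 1.01, -1.71 ± 0.97 and -0.96 ± 0.66). The same order held for both probe sets of Nr4a1 (-0.55 ± 0.81 and -0.57 ± 0.44), both of Zfp36 (-1.22 ± 0.87 and -0.35 ± 0.45) and rc_AI176662_s_at of Egr1 (-1.39 ± 0.93). Both ARB arrays lay above both ACEI arrays for Nr4a3 (0.96 ± 0.52), for probe sets of Jun, Junb and Dusp1, and for AF023087_s_at and U75398_s_at of Egr1, the last at 1.61 ± 0.61 (unadjusted p = 0.0289, adjusted p = 0.168 in limma). Of the 21 probe sets 8 were lower without overlap, against 25.2% of all tested, and 7 higher without overlap, against 38.2%. At an unadjusted p under 0.05 the members had 1 higher and 0 lower (16.9% and 6.66% of all), and by sign 12 were lower and 9 higher (43.0% and 57.0%). The signs turned to 9 lower and 12 higher after quantile and after cyclic loess normalization, and to 10 lower and 11 higher in the fit with a run day term. In the fit of all 6 arrays 0 of the 21 passed (0.0% of all), and that fit takes its error in part from the control pair.

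A fit of the ACEI and ARB arrays alone, planned as an alternative, gave smaller errors and called 7.27% of all probe sets. Of the members 2 of 21 passed, both of Fos: X06769cds_at at -1.90 ± 0.37 (adjusted p = 0.0338) and X03347cds_g_at at -1.71 ± 0.38 (adjusted p = 0.0473), while X06769cds_g_at was at -0.96 (adjusted p = 0.132). The closest others were Egr1 on rc_AI176662_s_at (adjusted p = 0.0624) and on U75398_s_at (0.0739, in the opposite direction) and Zfp36 on X63369cds_at (0.0805). Within the later run day 12 of the 21 were lower with ARB than on ACEI 2 (42.9% of all), and the Fos probe sets were at -1.99, -1.91 and -0.90. In the fit of all arrays with a term for run day these differences were -1.01 ± 0.98, -0.93 ± 0.98 and -0.44 ± 0.62, and neither call held. U75398_s_at of Egr1 went the other way, at 2.15 within the later day and 2.22 ± 0.47 in the fit with a run day term (unadjusted p = 0.00267, adjusted p = 0.134 in limma).

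Markers of several cell types differed between the same arrays. The summed intensity of 10 endothelial markers was 48960 and 53303 with ACEI and 33943 and 43567 with ARB, that of 6 astrocyte markers 35309 and 48519 against 11967 and 10951, and that of 5 oligodendrocyte markers 17287 and 16288 against 4743 and 4485. The sum of 7 microglia and macrophage markers was 16587 and 36723 against 10659 and 11015, and that of 12 neuronal markers 6994 and 6046 against 8931 and 10798. None of these genes was at 0 on any array. Lower Fos, Nr4a1 and Zfp36 on the ARB arrays went with lower sums of endothelial, astrocyte, oligodendrocyte and microglial markers, and the part of these in the early gene values was not tested. Single markers did not all follow their sum. The microglial Ptprc was at 911 and 719 with ARB against 366 and 234 with ACEI, and the astrocyte Slc1a2 at 622 and 483 against 481 and 164. Slc2a1 overlapped, at 27457 and 37476 against 34416 and 34653. The pericyte and smooth muscle sum was higher with ARB, at 15733 and 17206 against 15339 and 12269. Several marker levels also separated the controls from the treated arrays, as the Nr4a1 probe set U17254_g_at and the Zfp36 probe set rc_AA800613_at did. The sum of 7 pericyte and smooth muscle markers was 28968 and 34296 on the controls and 12269 to 17206 on the treated arrays. Acta2 made up most of it on every array, at 19511 and 23120 on the controls against 7200 to 9605. Acta2 and Tagln were lower on every treated array than on both controls, while the remaining markers of this sum overlapped. Anpep was at 389 and 863 on the controls and 452 to 1902 on the treated arrays. The endothelial sum was 53492 and 70236 against 33943 to 53303, a narrow gap. Slc2a1 made up most of that sum on every array, at 33691 and 66763 on the controls. Pecam1, Vwf, Nos3, Tfrc, Abcb1a and Edn1 were each lowest on control 2, and the remaining endothelial markers were not. The neuronal sum was higher on the treated arrays, at 6046 to 10798 against 2892 and 5690. Of 4 blood cell markers, 3 were lower on every treated array than on both controls. The erythroid haem synthesis gene Alas2 was at 10011 and 9087 on the controls against 680 to 4310, and the neutrophil genes S100a8 and S100a9 were at 2686 and 2679 against 79.6 to 1586 and at 4805 and 5310 against 482 to 3158. The beta-globin gene Hbb, the fourth, was at 21900 and 90197 on the controls and 34508 to 46802 on the treated arrays, and made up most of the blood sum of 107273 on control 2 (39402 to 49927 elsewhere). The part of these markers in the early gene values was not tested.

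**Figure D4:**
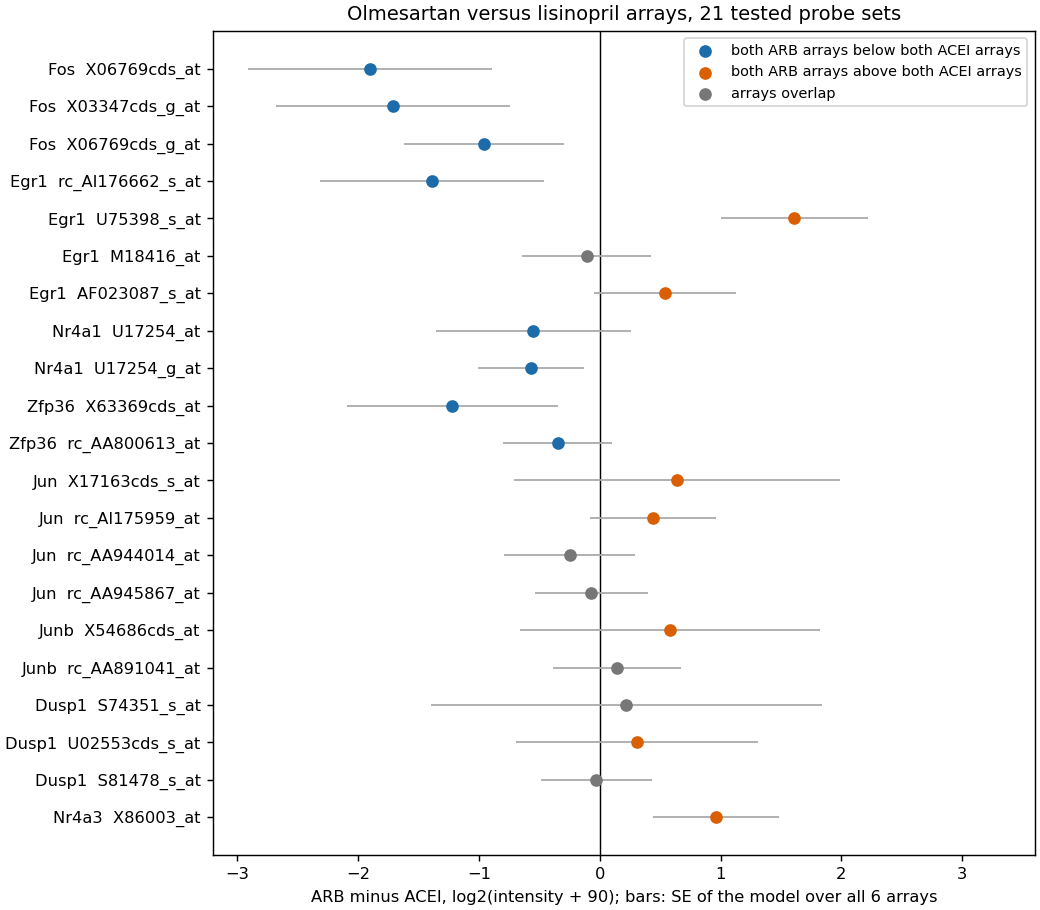
ARB minus ACEI in log2(intensity + 90) for the 21 tested probe sets, with the SE of the model over all 6 arrays as bars. Blue points are probe sets on which both ARB arrays lie below both ACEI arrays (all 3 of Fos, both of Nr4a1, both of Zfp36 and 1 of Egr1), orange points the reverse, and grey points overlap.

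Other early response genes were counted from a list of 57 names, of which 36 were on the array and 32 tested. For RAS blockade 13 were higher and 19 lower, against 60.2% and 39.8% of all tested probe sets. Their median was -0.15 against 0.10 over all named genes. In limma 0 passed, and 1 was lower at an unadjusted p under 0.05. On 4 of them all treated arrays lay below both controls: Errfi1, which inhibits the EGF receptor, the stress factor Atf3, Myc and the growth inhibitor Btg1. Over all tested probe sets 3.68% were so placed. By size the first were Errfi1 at -1.43 ± 0.47 (unadjusted p = 0.0154, adjusted p = 0.835), the interferon-responsive factor Irf1 at -1.35 ± 0.63, Egr2, a relative of Egr1, at -0.61 ± 0.48 and Ier3 at 0.60 ± 0.78. Errfi1 was at 1946 and 3633 on the controls, 435 and 933 with ACEI and 1532 and 1160 with ARB, and its same-day differences were -1.95 and -1.86 for ACEI and -1.39 for ARB. Its other probe sets were at 1.25 and -0.78. Irf1 was at 2820 and 9813 on the controls, 1428 and 4168 with ACEI and 2149 and 1275 with ARB, and its other probe set was at 0.23. Ier3 had the Fos pattern, with 7130 and 694 on the controls, 4069 and 5668 with ACEI and 2541 and 2616 with ARB. For ARB versus ACEI 23 of the 32 were higher and 9 lower, with a median of 0.31, against 57.0% and 43.0% of all tested probe sets and a median of 0.21 over all named genes.

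The signalling genes that lead to early gene induction showed no shared direction. Of 18 tested kinases, Ras proteins and adaptors 10 were higher and 8 lower with RAS blockade (median 0.09). Of all tested probe sets 60.2% were higher and 39.8% lower, and the median over all named genes was 0.10. None of the 18 was called by limma, and 0 had an unadjusted p below 0.05. The largest differences were those of Mapk12, a p38 kinase, at -0.94 ± 0.44, Map2k5, which activates the kinase Erk5, at 0.63 ± 0.39, Map3k12 at 0.59 ± 0.60 and Map2k6, which activates p38, at 0.54 ± 0.39. Map2k6 was the only one of the 18 with all treated arrays above both controls, as 4.63% of all tested were. The protein kinase C gene Prkcd was the only one with all below, as 3.68% of all tested were.

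Heat shock and stress genes, which handling of tissue is also known to induce, were lower in 11 of 12 tested genes with RAS blockade (median -0.41, against 39.8% of all tested probe sets and a median of 0.10 over all named genes). None of the 12 was called by limma, and 0 had an unadjusted p below 0.05. They were lower in 11 of 12 with ACEI (53.3% of all) and in 10 of 12 with ARB (41.4%). These shares are over all tested probe sets, while each of the 12 is the brightest probe set of its gene. For RAS blockade 1605 of 3496 were lower with the lowest 60% left out, and 2704 of 5244 after quantile normalization. The count of the 12 was not repeated in those settings. The largest were the small heat shock protein Cryab at -0.82 ± 0.52, haem oxygenase Hmox1 at -0.81 ± 0.42 and the mitochondrial chaperonins Hspe1 at -0.77 ± 0.54 and Hspd1 at -0.59 ± 0.43. The other probe sets of these genes were at 0.04 (Cryab), -0.37 (Hmox1), -0.33 (Hspe1) and -0.04 (Hspd1). Further probe sets of the list, some below the filter, went both ways. They were at 0.20, 0.33 and 0.59 for Hsp90ab1, 1.71, -0.29 and 0.63 for Hspb1, and -0.69 and 0.06 for Hspa5. Those of Dnaja1, Hspa4, Hsph1 and Dnajb1 were at -0.88, -0.37, -0.09 and -0.08. Unlike the coding-sequence probe sets of the early genes, Cryab, Hspe1 and Hspd1 were higher on control 2 than on control 1, by 1.72, 1.53 and 0.96. Their ACEI differences within the first day were 0.07, 0.48 and 0.21. Hspa1a, Hmox1, Hsph1 and Hspa4 were lower on control 2, at -1.58, -0.59, -0.41 and -0.28, and the remaining genes of the 12 were higher there. Hspa1a was also the 1 gene of the 12 that was higher with RAS blockade, at 0.20 ± 0.52. Hmox1 was lower on each treated array than on both controls, at 3417 and 2236 against 1152 to 1830, and so were the chaperone genes Hsph1, Dnajb1 and Hspa4, 4 of the 12 against 3.68% of all.

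The mean profile of the 8 tested genes, at 1 probe set each (that with the highest mean intensity), ran from 0.45 on control 1 to -0.49 on control 2, with the treated arrays between -0.06 and 0.09 (centred log2 units). Not all 8 shared it. Control 2 minus control 1 at these probe sets was 1.35 for Egr1, 0.12 for Nr4a1 and -0.20 for Zfp36, and -3.67 to -0.91 for the others. Among 3178 other genes the 5 closest to the mean profile over the 6 arrays were Dock8, Irf8, Trim3, Notch4 and Tcf4, with Pearson r of 0.979, 0.965, 0.954, 0.937 and 0.934. Notch4, a receptor of endothelium, was at 1681 on control 1, 93.1 on control 2 and between 708 and 1102 on the treated arrays. Dock8 was at 3941 and 1206 on the controls and between 2062 and 2524 on the treated arrays. All 5 were highest on control 1 and lowest on control 2, an order that their choice by this profile favours. High r values are also to be found among so many genes over only 6 arrays, so neither is separate support for a shared pattern.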

How the data were processed

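Per the file headers the arrays are of type RG_U34A. The deposited table holds 1 intensity per probe set and array, with trimmed means (2% at either end) of 997.7 to 1002 per array; the software, background correction and origin of the scale are not given in the sources used here. Run days, chip lots and fluidics protocols were read from the array run headers. An offset of 90 (set from the median of 358.3 of the values above 0) was added before log2, and no further normalization was applied. The 59 control probe sets and the 40% of the rest with the lowest mean intensity were left out, which left 5244. A model with 1 mean per group over all 6 arrays was fitted by limma (version 3.58.1, under R 4.3.3), with 3 residual degrees of freedom and 5.39 from the prior (two-sided tests, Benjamini-Hochberg over all 5244, threshold 0.05). The fit was tested on simulated data with large changes and a smaller spread that was equal on all arrays. That test does not show how the fit handles an array such as control 2. Python 3.11.15 with pandas 2.3.3 and matplotlib 3.10.9 served for the rest.

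Probe sets were named by GEO's annotation: 7018 had 1 symbol, 308 several (not named) and 1473 none. Members and gene lists were chosen with earlier results of these data known. All member probe sets were reported; from each further list the 4 genes with the largest RAS blockade difference, at the probe set with the highest mean, were named, and the 5 genes closest to the members' mean profile. Genes with all treated arrays beyond the controls were named after their values were seen, as was Hspa1a. Promoter sequences are RefSeq's, build GRCr8. The number of arrays limits the precision.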

Additional observations from a re-analysis of the deposited data

How the results depend on the processing

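The counts of called probe sets, 0 in each comparison, were 3 for RAS blockade, 3 for ACEI and 4 for ARB with an offset equal to the median. For RAS blockade 1 passed after quantile and 1 after cyclic loess normalization. With the replicate number as a block 3 passed for RAS blockade and 2 for ACEI, none of them a member. The replicate number coincides with the fluidics protocol, and in the control and ACEI pairs also with run day and chip lot. Correlations of the within-group differences were -0.014 to 0.039, and the block changed no call of a member. With the ACEI and ARB arrays alone 381 passed. Leaving out single arrays gave 0 to 57 calls for RAS blockade, 0 to 263 for ACEI, 0 to 103 for ARB and 0 to 381 for ARB versus ACEI, all of the highest from leaving out a control. Lower members ranged from 5 to 18 for RAS blockade, 6 to 21 for ACEI and 5 to 16 for ARB, and 5 were lower for ARB once run day was a block. At 1 probe set per gene 216 of 229 values kept their sign and side of the threshold when no array was left out. Junb changed sign for RAS blockade at 0.01 (quantile), 0.08 (cyclic loess) and 0.86 (mean of all its probe sets), for ACEI at 0.68 (mean) and for ARB at 0.25 (quantile), 0.28 (cyclic loess), 0.03 (run day) and 1.03 (mean). So did, for ARB, Fos at 0.05 (cyclic loess) and 0.18 (run day) and Egr1 at 0.32 (cyclic loess) and 0.08 (mean), and for ACEI Nr4a3 at -0.07 (mean). Without single arrays the sign changed for RAS blockade in Fos (-0.86 to 1.13), Junb (-0.68 to 0.35), Egr1 (-1.11 to 0.24) and Dusp1 (-0.41 to 3.26). For ACEI it changed in Fos (-0.38 to 1.61), Jun (-0.20 to 0.96), Junb (-0.75 to 0.29), Nr4a3 (-0.26 to 0.65) and Dusp1 (-0.56 to 3.10). For ARB it changed in Fos (-1.34 to 0.65), Junb (-0.61 to 0.42), Egr1 (-0.83 to 0.51) and Dusp1 (-0.25 to 3.41). The cause was not tested. The median ARB difference of all probe sets was 0.20, and -0.05 after quantile and 0.02 after cyclic loess normalization. No detection calls were used, so how far Fosl1 and Jund stand above background is unknown.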
